A study of Homo sapiens with 12 samples.

Results

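PROM1 and 7 genes that lie around it on the short arm of human chromosome 4 (band 4p15) were followed: PROM1, TAPT1, FGFBP1, FGFBP2, CD38, BST1, CC2D2A and LDB2. They were picked by name, with the effect of targeting LTR5HS elements on these libraries already known, and they make up 8 of the 26641 genes counted. All 8 were found in the count table under these names. The comparisons of targeted with control libraries are therefore given for them as a description, without p-values.

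The study asked how LTR5HS elements, the long terminal repeats of the youngest HERVK endogenous retroviruses, affect gene expression in NCCIT cells, a human embryonal carcinoma line. PolyA RNA was sequenced from 6 lines, each with 2 biological replicates, giving 12 libraries. Every line carried a doxycycline-inducible nuclease-dead Streptococcus pyogenes Cas9 fused either to the activator VPR (dCas9-VPR, CRISPRa) or to the repressor KRAB (dCas9-KRAB, CRISPRi), and all cells received doxycycline for 4 days. Every line also carried 1 of 3 CARGO arrays, which express 12 guides from a single construct. The LTR5HS Sp array holds LTR5HS guides on the S. pyogenes scaffold that this dCas9 binds, and libraries with it are called recruitment here. The LTR5HS Sa array holds LTR5HS guides on the Staphylococcus aureus scaffold, and the nontarget Sp array holds guides without an LTR5HS target on the S. pyogenes scaffold. These last 2 arrays served as controls. Both transgenes were inserted by PiggyBac transposition and selected with drugs, so that each combination of fusion and array is a single stably transfected line and its 2 replicates share that line.

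PROM1 encodes prominin 1 (CD133), a pentaspan membrane glycoprotein that sits in plasma membrane protrusions and is widely used as a surface marker of stem and cancer stem cells. Its neighbours belong to unrelated families. CD38 and BST1 are related surface enzymes that use NAD, FGFBP1 and FGFBP2 are secreted proteins of the fibroblast growth factor binding family, CC2D2A and TAPT1 act at the base of the cilium, and LDB2 is a nuclear adaptor that joins LIM-domain proteins to transcription factors.

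The guide sequences were searched for over the whole locus (hg38, chr4:14469865-17898678), on both strands, with an NGG motif (PAM) after the 16 guide bases. Exact matches were found at 7 places. Of these, 6 lay in a stretch of 491 bases, chr4:16076990-16077480, inside intron 1 of the canonical PROM1 transcript (chr4:16076119-16083977, 7.86 kb, GENCODE 44). They are matches of 6 different guides, 4 on the plus strand and 2 on the minus strand. They are shown because they are where the recruited fusion has its targets nearest to any of the 8 genes. Each is written 5′ to 3′ on its own strand, with the PAM in capitals.
LTR5HS-7, chr4:16076990-16077008, minus strand: aaccttggacaataccTGG
LTR5HS-4, chr4:16077070-16077088, plus strand: agcccgacacccgtaaAGG
LTR5HS-8, chr4:16077083-16077101, plus strand: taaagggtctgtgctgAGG
LTR5HS-9, chr4:16077172-16077190, minus strand: gacattccattgcccaGGG
LTR5HS-2, chr4:16077235-16077253, plus strand: aaaaccgccttagggcTGG
LTR5HS-1, chr4:16077462-16077480, plus strand: tactaagggaactcagAGG

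The remaining exact match stood alone, 198 kb away, between CD38 and FGFBP1.
LTR5HS-10, chr4:15879445-15879463, minus strand: atagagaaagaaaagtGGG
With up to 1 mismatch the locus held 12 matches. Around the solitary match the relaxed search gave 4 sites, the exact one included. At the PROM1 stretch it added 2, LTR5HS-3 on the LTR5HS-2 site and LTR5HS-11 at position 16077594. A sequence match shows where a guide could pair, and binding of dCas9 was not analysed here.

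PROM1 lies on the minus strand, at chr4:15963076-16084378, and its canonical transcript starts at position 16084023, so that the nearest guide site is 6.54 kb inside the transcribed region. Of the 22 annotated PROM1 transcripts, 14 start before the sites and 8 start after them. Of these 8, 4 start within 2 kb of the sites, the nearest at position 16075906, which is 1.08 kb beyond them. RefSeq places a PROM1 start at position 16076118, 872 bases from the nearest site. In the canonical transcript this position is the first base of the exon that follows intron 1. The guide sites thus stand inside the transcribed region for the 14 transcripts that start before them, and within 2 kb upstream of the start for 4 others. The counts are per gene, so the 2 groups of transcripts were not separated.

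**Figure D1:**
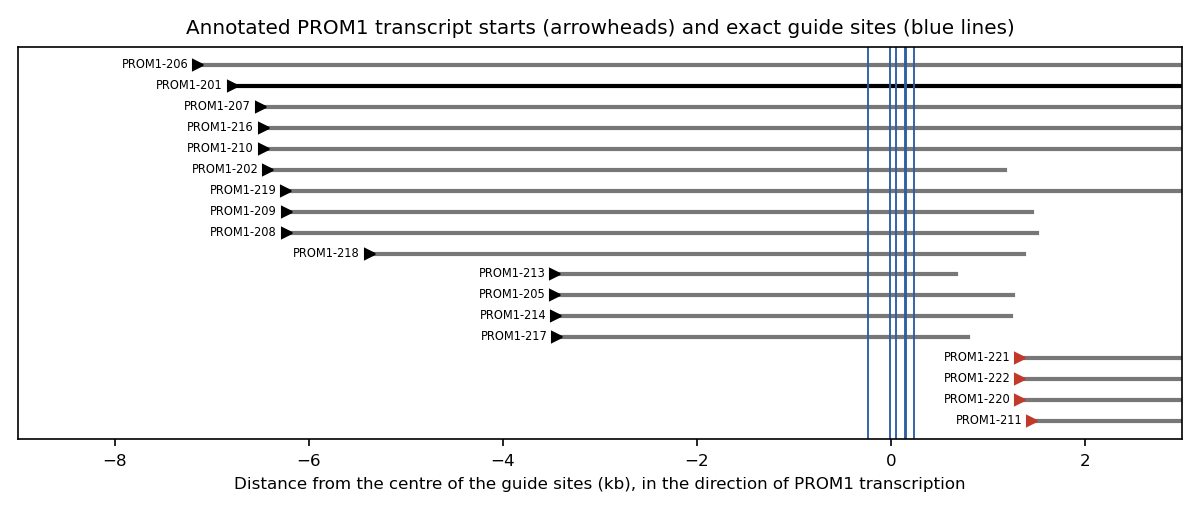
Annotated PROM1 transcripts (grey; canonical transcript black) by distance from the centre of the guide sites in kb, in the direction of PROM1 transcription, with starts as arrowheads and exact guide sites as blue lines. The plot covers 18 of the 22 transcripts; the 14 with black arrowheads start before the sites, and the 4 with red arrowheads start within 2 kb after them.

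RefSeq lists promoters (250 bases before to 50 after a start, GRCh38.p14) for 5 of the 8 genes, and 4 of these promoters belong to PROM1. The promoter of the canonical start and the entry listed for the start next to the guide sites are shown because the sites lie between them. In the canonical transcript, the 250 bases before the second start are the end of intron 1. Whether transcription begins at that start was not tested. CG dinucleotides are in capitals, and both run 5′ to 3′ on the minus strand.
PROM1, canonical start, chr4:16083974-16084273: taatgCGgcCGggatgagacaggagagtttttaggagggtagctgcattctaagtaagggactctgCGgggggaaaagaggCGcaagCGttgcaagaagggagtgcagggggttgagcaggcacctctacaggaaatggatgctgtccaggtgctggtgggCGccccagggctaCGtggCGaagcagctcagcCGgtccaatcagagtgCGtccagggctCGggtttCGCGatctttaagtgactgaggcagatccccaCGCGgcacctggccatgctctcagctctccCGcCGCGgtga
PROM1, start next to the guide sites, chr4:16076069-16076368: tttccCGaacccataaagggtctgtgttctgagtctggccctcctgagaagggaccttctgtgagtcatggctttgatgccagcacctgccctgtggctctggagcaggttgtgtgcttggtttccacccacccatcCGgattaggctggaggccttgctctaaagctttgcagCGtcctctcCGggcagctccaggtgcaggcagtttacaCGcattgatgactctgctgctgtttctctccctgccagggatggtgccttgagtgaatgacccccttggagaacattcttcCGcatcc
The canonical promoter held 18 CG dinucleotides, against a median of 14 over 35116 RefSeq promoters. The entry next to the guide sites, mostly intron sequence of the canonical transcript, held 6. The other PROM1 promoters, at 16083680-16083979 and 16083287-16083586, held 32 and 24.

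By canonical starts, FGFBP2 is the nearest of the neighbours, whereas by the nearest annotated transcript start TAPT1 (89.4 kb) is nearer than FGFBP2 (108 kb). The canonical start of FGFBP2 is 114 kb beyond PROM1's guide sites in the direction of PROM1 transcription (chr4:15960245-15969309), followed by FGFBP1 at 138 kb (chr4:15935577-15938740). On the other side, TAPT1 starts 149 kb away (chr4:16160505-16227410) and LDB2 821 kb away (chr4:16501541-16898678). CD38 (chr4:15778275-15853232), BST1 (chr4:15703065-15738313) and CC2D2A (chr4:15469865-15601552) lie on the plus strand, with starts 299, 374 and 607 kb from the sites. The solitary LTR5HS-10 match is nearer to some of them, lying 59.3 kb from the start of FGFBP1, 83.7 kb from FGFBP2 and 101 kb from CD38.

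The libraries held 13601701 to 69797411 counts, with a median of 18256928. The deepest, dCas9-KRAB nontarget Sp replicate 2, stood apart from the next deepest at 24840708. Levels are given as CPM, read counts scaled to library size with edgeR's TMM factors, and a count of 3 corresponds to 0.0455 to 0.233 CPM depending on the library. All 8 embryonal carcinoma markers checked were detected in every library, but the lines were not alike. Their summed level was 813 to 1452 CPM in the dCas9-VPR controls and 3841 to 4731 CPM in the dCas9-KRAB controls, and NANOG ranged from 1.05 to 185 CPM over the 12 libraries. Mesoderm markers (3 of 4 in the table, HAND1 the most abundant) summed to 149 to 282 CPM in the dCas9-VPR controls and 6.52 to 16.7 CPM in the dCas9-KRAB controls.

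PROM1 had the clearest difference between recruitment and control with both fusions. With dCas9-VPR it was at 105 and 106 CPM in the recruitment libraries. In the controls it was at 24.9 and 27.8 CPM with LTR5HS Sa and at 28.6 and 24.3 CPM with nontarget Sp. Both recruitment libraries were therefore above all 4 controls, and the fitted difference was 2.00 on the log2 scale (SE 0.11), or 4.01-fold. With dCas9-KRAB it was at 11.4 and 10.3 CPM in the recruitment libraries. In the controls it was at 106 and 120 CPM with LTR5HS Sa and at 158 and 155 CPM with nontarget Sp. The recruitment libraries were below all 4 controls, and the fitted difference was -3.63 on the log2 scale (SE 0.21), so that controls stood 12.4-fold above recruitment. Among all genes tested, PROM1 ranked 799 from the highest of 16271 with CRISPRa and 42 from the lowest of 15520 with CRISPRi. In bulk RNA, fewer cells that express a gene and less RNA per cell cannot be told apart.

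**Figure D2:**
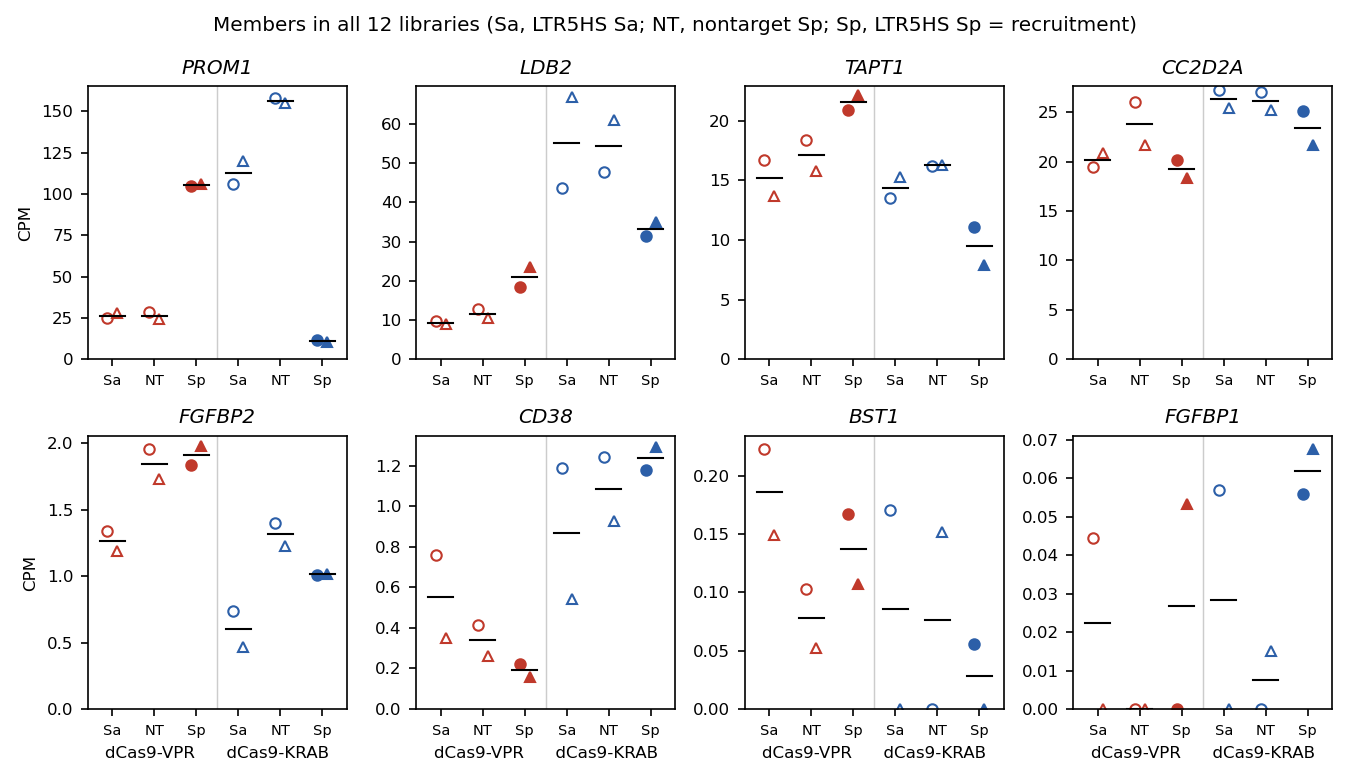
CPM of each gene in all 12 libraries (linear axes from 0), dCas9-VPR in red and dCas9-KRAB in blue; Sa is LTR5HS Sa, NT is nontarget Sp and filled symbols are recruitment (LTR5HS Sp), with circles for replicate 1, triangles for replicate 2 and black lines for the mean of 2. PROM1 recruitment libraries reach 105 and 106 CPM with dCas9-VPR and 11.4 and 10.3 CPM with dCas9-KRAB, and FGFBP1 and BST1 stay near 0.

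LDB2, the member whose canonical start is farthest from the PROM1 guide sites (by the nearest transcript start, CC2D2A at 481 kb is farther than LDB2 at 430 kb), ran in the same direction as PROM1 with smaller differences. With dCas9-VPR it was at 18.5 and 23.5 CPM in the recruitment libraries, against 9.63 and 8.94 CPM with LTR5HS Sa and 12.8 and 10.5 CPM with nontarget Sp. With dCas9-KRAB it was at 31.4 and 35.1 CPM in the recruitment libraries, against 43.7 and 66.8 CPM with LTR5HS Sa and 47.7 and 61.1 CPM with nontarget Sp. Neither set of recruitment libraries overlapped its controls. The fitted difference was 1.01 on the log2 scale (SE 0.18) with CRISPRa, or 2.01-fold. With CRISPRi it was -0.72 (SE 0.18), controls being 1.65-fold above recruitment. The controls of LDB2 spread widely with dCas9-KRAB, from 43.7 to 66.8 CPM.

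TAPT1 encodes a membrane protein of the ciliary base, and is the neighbour next to the start of PROM1. With dCas9-VPR it was at 20.9 and 22.2 CPM in the recruitment libraries, against 16.7 and 13.7 CPM with LTR5HS Sa and 18.4 and 15.8 CPM with nontarget Sp. With dCas9-KRAB it was at 11.1 and 7.92 CPM in the recruitment libraries, against 13.5 and 15.3 CPM with LTR5HS Sa and 16.2 and 16.3 CPM with nontarget Sp. These groups did not overlap either. The log2 differences were 0.42 (SE 0.15) with CRISPRa and -0.68 (SE 0.18) with CRISPRi, and neither passed the threshold used for all genes (edgeR quasi-likelihood test, Benjamini-Hochberg adjusted p of 0.05). TAPT1 was called with CRISPRa when the control arrays were separate groups, with LTR5HS Sa alone as control and without dCas9-VPR nontarget Sp replicate 1, and with CRISPRi by DESeq2's Wald test.

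CC2D2A, a protein of the ciliary transition zone that is mutated in Joubert and Meckel syndromes, showed small differences of the same sign with both fusions. With dCas9-VPR it was at 20.2 and 18.3 CPM in the recruitment libraries, and its controls ran from 19.4 to 26.0 CPM and overlapped them. With dCas9-KRAB it was at 25.1 and 21.7 CPM, just below controls of 25.2 to 27.2 CPM. The log2 differences were -0.19 (SE 0.15) with CRISPRa and -0.16 (SE 0.13) with CRISPRi.

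FGFBP2, a secreted protein best known from cytotoxic lymphocytes, was near 1 CPM. With dCas9-VPR it was at 1.84 and 1.98 CPM in the recruitment libraries, against 1.34 and 1.19 CPM with LTR5HS Sa and 1.96 and 1.73 CPM with nontarget Sp. With dCas9-KRAB it was at 1.01 and 1.02 CPM, against 0.739 and 0.466 CPM with LTR5HS Sa and 1.40 and 1.23 CPM with nontarget Sp. In both fusions the recruitment libraries overlapped the range of the controls, and the fitted folds were 1.23 with CRISPRa and 0.998 with CRISPRi (SE 0.28 and 0.40 on the log2 scale). Annotated exons of FGFBP2 share 166 bases with exons of PROM1 on the same strand, which is 14% of FGFBP2 exons, so reads there could belong to either gene. FGFBP2 did not follow PROM1 across the libraries, with a Pearson r of -0.071 over the 12 libraries (log2 CPM).

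CD38, BST1 and FGFBP1 were close to the limit of detection. CD38, which makes and breaks down cyclic ADP-ribose, had 4 and 3 counts in the dCas9-VPR recruitment libraries, against 17 and 7 counts with LTR5HS Sa and 8 and 5 with nontarget Sp, and did not pass the filter on low counts with that fusion. In CPM the recruitment libraries, at 0.223 and 0.160, were below all 4 controls, at 0.263 to 0.758. With dCas9-KRAB it was at 1.18 and 1.29 CPM in the recruitment libraries and at 0.543 to 1.24 CPM in the controls, with a log2 difference of 0.31 (SE 0.36). BST1, the paralog of CD38, had at most 10 counts in a library and 30 counts over all 12 libraries. FGFBP1, which releases fibroblast growth factors from the matrix, had a single count in 6 libraries and none in the other 6, and up to 3 counts (0.233 CPM at most) would not have been distinguishable from 0. No difference in BST1 or FGFBP1 was detectable at this depth. Markers of blood cells that carry CD38 or BST1 were low or absent, PTPRC reaching no more than 0.0557 CPM, although SDC1 ranged from 5.84 to 68.9 CPM.

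With CRISPRa, 5 of the 8 genes passed the filter on low counts, and 2 of them, PROM1 and LDB2, were called. Over all 16271 genes tested with dCas9-VPR, 28% were called, 15.7% in the higher and 12.3% in the lower direction. With CRISPRi, 6 passed the filter and 1, PROM1, was called, against 2.77% of the 15520 genes tested and 1.94% in the lower direction. Both called and higher with CRISPRa and called and lower with CRISPRi were 1.47% of the genes tested with both fusions, PROM1 among them. Recruitment libraries lay above all controls for 3 of the 5 genes tested with CRISPRa, against 25.5% of all genes. They lay below all controls for 4 of the 6 tested with CRISPRi, against 12%. Nothing is read from these counts, since the genes were chosen with both contrasts known. Over the tested members the median log2 difference was 0.42 for CRISPRa and -0.42 for CRISPRi, beside -0.019 and 0.001 over all genes. The call of LDB2 with CRISPRa was lost without dCas9-VPR LTR5HS Sp replicate 2, when its log2 difference was 0.82, and the call of LDB2 with CRISPRi was gained under several alternatives given in the closing section.

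**Figure D3:**
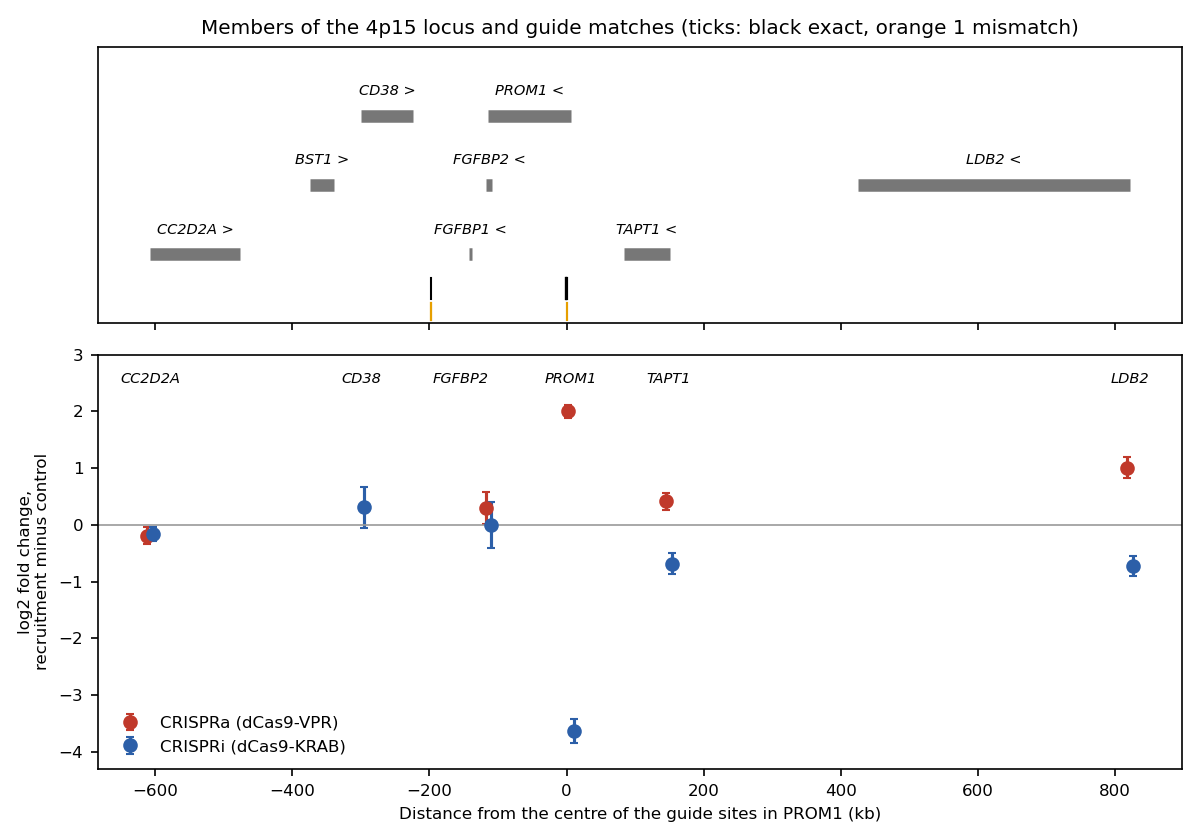
Upper panel, gene bodies (grey bars; > plus strand, < minus strand) and guide matches (black ticks exact, orange ticks with 1 mismatch) by distance in kb from the centre of the guide sites in PROM1; lower panel, log2 fold change of recruitment minus control at each gene's canonical start, with SE bars, for dCas9-VPR (6 libraries, red) and dCas9-KRAB (6 libraries, blue). PROM1 is at 2.00 and -3.63, while CC2D2A, 607 kb away, is at -0.19 and -0.16; CD38 is shown with dCas9-KRAB only, and BST1 and FGFBP1, which did not pass the filter, are not plotted.

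PROM1, the nearest to the sites at 6.54 kb, had the largest log2 differences, 2.00 with CRISPRa and -3.63 with CRISPRi. Among its neighbours, distance did not order the differences. LDB2 at 821 kb had a log2 difference of 1.01 with CRISPRa, FGFBP2 at 114 kb had 0.30 and TAPT1 at 149 kb had 0.42. By its nearest transcript start LDB2 was at 430 kb. Among the other genes that start within 1 Mb of the sites, 4 were in the table and 3 were tested with each fusion. None of the 3 was called with either fusion by edgeR's quasi-likelihood test or by DESeq2. By edgeR, 0 had an unadjusted p under 0.05 with CRISPRa and 1, FBXL5, with CRISPRi. With CRISPRa their log2 differences were 0.14 (SE 0.27) for FAM200B, 0.14 (SE 0.29) for TAPT1-AS1 and 0.01 (SE 0.17) for FBXL5. With CRISPRi they were -0.27, -0.46 and -0.45.

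The 2 control arrays could also be compared with each other. The same libraries are the controls of the contrasts above, which were known when the genes were chosen. This test is therefore not independent of that choice. LTR5HS Sa was compared with nontarget Sp within each fusion, without the recruitment libraries in the contrast. With dCas9-VPR, none of the 5 genes tested was called (edgeR quasi-likelihood test; smallest adjusted p = 0.362), against 4.51% of all genes, and 0 had an unadjusted p under 0.05, against 18.8%. PROM1 differed by 0.01 on the log2 scale (SE 0.13, adjusted p = 0.974). With dCas9-KRAB, none of the 6 tested was called, against 0.567% of all genes, but 2 had an unadjusted p under 0.05, against 9.91%. These were PROM1, which was lower with LTR5HS Sa by a log2 difference of -0.46 (SE 0.12, unadjusted p = 0.00372, adjusted p = 0.204 by edgeR), and FGFBP2, at -1.07 (SE 0.39, unadjusted p = 0.0197, adjusted p = 0.392 by edgeR). DESeq2 also called 0 members with either fusion. FGFBP2 was lower in both LTR5HS Sa libraries than in both nontarget Sp libraries with each fusion. The share of all genes that separate the 2 control arrays in this way is not given here, so nothing is read from it. The PROM1 difference with CRISPRi was -3.38 against LTR5HS Sa alone and -3.85 against nontarget Sp alone.

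The level from which PROM1 and LDB2 departed was not the same with the 2 fusions. The control libraries are also those of the contrasts above, so these levels are a description. PROM1 averaged 26.4 CPM in the 4 dCas9-VPR controls and 135 CPM in the 4 dCas9-KRAB controls, which is 5.10-fold higher in the latter, without overlap. LDB2 averaged 10.5 and 54.9 CPM, 5.25-fold higher, also without overlap. Over all genes tested with both fusions, 48.4% had control libraries that did not overlap between the fusions (26% with dCas9-KRAB above), and 2.39% and 2.26% of genes differed by at least as much as PROM1 and LDB2. CC2D2A (22.0 and 26.2 CPM), TAPT1 (16.1 and 15.3 CPM), FGFBP2 (1.56 and 0.959 CPM), CD38 (0.445 and 0.975 CPM) and BST1 (0.132 and 0.0806 CPM) overlapped between the fusions. PROM1 under CRISPRa, at 105 and 106 CPM, came just below the lowest dCas9-KRAB control, and PROM1 under CRISPRi, at 11.4 and 10.3 CPM, was below every dCas9-VPR control. The summed embryonal carcinoma markers moved with this difference, being on average 1132 CPM in the dCas9-VPR controls and 4250 CPM in the dCas9-KRAB controls, and their part in the levels of PROM1 and LDB2 was not tested.

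Within the dCas9-VPR lines the same marker sum was 1048 CPM in recruitment and 1132 CPM in control, and within the dCas9-KRAB lines it was 3957 and 4250 CPM. Markers of fibroblasts summed to 3065 CPM in the dCas9-VPR recruitment libraries and to 128 CPM in their controls. This sum was carried by COL1A1, which reached 3006 CPM, while COL1A2 and DCN did not exceed 0.267 and 1.11 CPM in any library. The blood marker sum was 68.3 CPM in dCas9-VPR recruitment and 15.1 CPM in control, and SDC1 carried it. Summed endoderm markers were at 10.5 and 5.84 CPM in those groups, and summed neural markers at 1.83 and 3.68 CPM. The part of these differences in the CRISPRa values of the 8 genes was not tested.

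Per kilobase of the gene length in the count table, PROM1 was the most abundant of the 8 with both fusions. In the dCas9-VPR controls it stood at 6.13 ± 0.488 CPM per kb (SD, n = 4). TAPT1 (3.52), CC2D2A (3.43) and LDB2 (3.14 CPM per kb) followed, and neighbours in this order overlapped among the 3. FGFBP2 was at 1.33 CPM per kb, and BST1 (0.0891), CD38 (0.0782) and FGFBP1 (0.00821 CPM per kb) were lowest. In the dCas9-KRAB controls PROM1 was at 31.3 ± 5.92 and LDB2 at 16.5 ± 3.28 CPM per kb (SD, n = 4), without overlap. CC2D2A (4.08), TAPT1 (3.34), FGFBP2 (0.819), CD38 (0.171), BST1 (0.0544) and FGFBP1 (0.0133 CPM per kb) followed, the last 3 overlapping with their neighbours. LDB2 thus stood below TAPT1 and CC2D2A with dCas9-VPR and above both with dCas9-KRAB.

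Across the 12 libraries, 35 of 15145 genes had a Pearson r of at least 0.9 with PROM1 (log2 CPM). This is a description, since the 12 libraries come from 6 lines. The 5 most alike were HKR1 (r = 0.981), a KRAB zinc finger gene, RMND1 (0.967), which is needed for mitochondrial translation, ENSA (0.960), an inhibitor of the phosphatase PP2A in mitosis, SEMA4A (0.955), a semaphorin, and PLSCR1 (0.954), a phospholipid scramblase. Genes alike to PROM1 over these libraries share its differences by selection, so these values are no further evidence. The log2 differences of the 5 ran from 0.76 (ENSA) to 3.39 (SEMA4A) with CRISPRa and from -4.33 (SEMA4A) to -0.97 (ENSA) with CRISPRi. SEMA4A averaged 0.612 CPM in the dCas9-KRAB recruitment libraries, close to the limit of detection, so the size of its -4.33 is uncertain. Of the other members, TAPT1 had an r of 0.626, LDB2 of 0.506 and CC2D2A of 0.223.

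**Figure D4:**
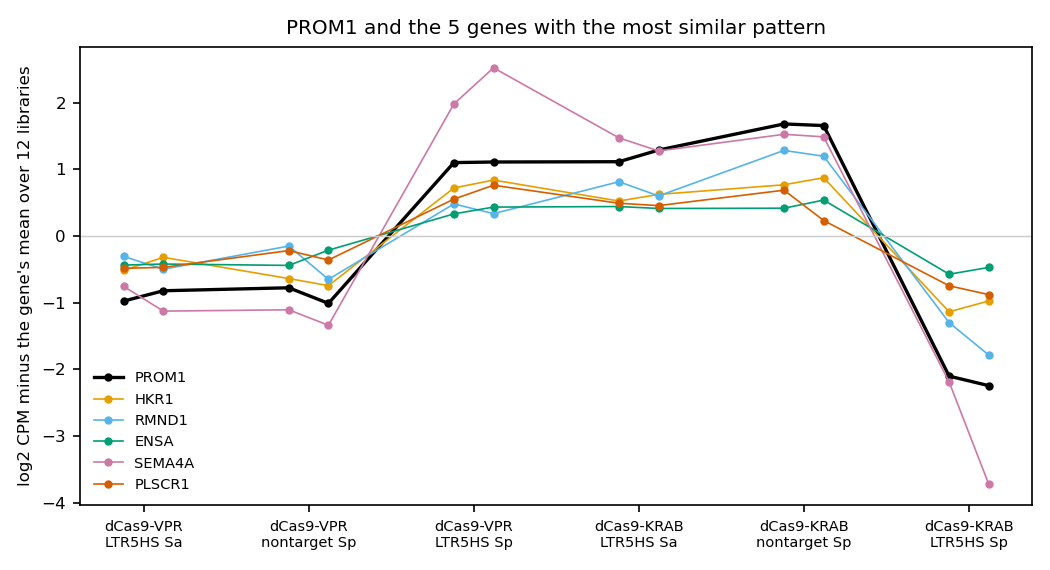
log2 CPM of PROM1 (black, thick) and of the 5 genes with the highest Pearson r to it, each minus its own mean over the 12 libraries, with 2 replicates per line side by side; lines join points only to guide the eye. All 6 genes are lowest in the dCas9-KRAB LTR5HS Sp libraries and higher in dCas9-VPR LTR5HS Sp than in the dCas9-VPR controls.

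Genes known to work with the 8 members were taken from 5 lists. With CRISPRa, 17 of the 47 tested list genes were called, against 28% of all genes, and with CRISPRi 1 of 47 was called, against 2.77%. The 17 include FGF10, which passed the filter on low counts only through the recruitment libraries. All values that follow are edgeR log2 differences, recruitment minus control, with adjusted p from the quasi-likelihood test. The lists were chosen with earlier results of these data known, so these adjusted p are a description and no test of the lists.

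Of 3 PROM1 relatives and partners tested with CRISPRa (median -0.24), 0 rose and 1 fell. This was CDHR1, a photoreceptor cadherin that binds prominin 1, at -2.64 (adjusted p = 0.00135). Of 9 genes of the LIM-domain-binding complex around LDB2 (median 0.78), 4 rose and 2 fell. The blood and endothelial adaptor LMO2 rose by 4.73 (adjusted p = 0.000239). It was at 8.9 CPM in recruitment and 0.32 CPM in control, where it was close to the limit of detection, so the size of its difference is uncertain. The homeodomain factor LHX2 rose by 1.56 (adjusted p = 0.00157), and SSBP4, which stabilizes LDB proteins, fell by 0.86 (adjusted p = 0.0481). Of 16 ciliary transition zone genes, the setting of CC2D2A, TCTN2 (0.95, adjusted p = 0.00528) and TCTN1 (0.66, adjusted p = 0.0383) rose and 0 fell, with a median of 0.14.

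CD38 and BST1 consume NAD. Of 11 genes of NAD metabolism, 1 rose and 2 fell with a median of -0.04. NMNAT3, which makes NAD in mitochondria, fell by 1.80 (adjusted p = 0.0354). It was close to the limit of detection, at 0.191 CPM in recruitment and 0.685 CPM in control. NAMPT, the rate-limiting enzyme of NAD salvage, fell by 0.42 (adjusted p = 0.0414), and NADSYN1 rose by 0.41 (adjusted p = 0.0316). Of 8 genes of the FGF binding protein family, its ligands and receptors, 1 rose and 4 fell. The receptors FGFR2 (-1.44, adjusted p = 6.91e-05) and FGFR4 (-1.23, adjusted p = 0.00154) were among those that fell. The ligand FGF10, the 1 that rose, had 12 counts in each dCas9-VPR recruitment library and 0 in all 4 controls. This is at least 4.15-fold higher than a floor of 3 counts per control library. FGF10 passed the filter on low counts only through the recruitment libraries, where it is high, so nothing is read from its call. The median of this list was -1.04, and FGF10 is the highest of its 8 values at that bound too, which leaves the median in place.

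With CRISPRi the 1 gene called was FGF2, a ligand of the FGF list, which rose by 0.73 (adjusted p = 0.0457); 0.831% of all genes were called higher with CRISPRi. The CRISPRi medians were 0.03 for the PROM1 relatives (3 tested), 0.52 for the FGF list (7 tested), 0.11 for NAD metabolism (11 tested), -0.05 for the transition zone (16 tested) and 0.03 for the LIM-domain-binding list (10 tested), beside 0.001 over all genes.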

How the data were processed

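The authors deposited 1 table of whole-number read counts per gene for the 12 RNA-seq libraries, with a gene length column (another unit, bases) that was used only for levels per kilobase. The submitters' processing notes name CASAVA 1.8, cutadapt 1.8.1, HISAT2 2.1.0, featureCounts 1.4.6-p2 and hg38. Per the study's methods, read pairs were aligned to the hg38_tran index. Which gene models and which strand option were used for counting is not given in the sources used here, and the cDNA protocol does not mark strand, so reads of overlapping genes cannot be told apart. Of the 26641 names, 28 look like dates, as spreadsheet programs write some symbols, and were left as they were.

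Counts were tested within each fusion with edgeR 4.0.16 in R 4.3.3 (filterByExpr, TMM, quasi-likelihood F-test, Benjamini-Hochberg over all genes tested, called at an adjusted p under 0.05), recruitment against both control arrays pooled. DESeq2 1.42.0 was an alternative. The fits were also run on simulated counts. There the arrays differed only at genes where a change was put in, so the run could not check pooling of unlike control lines. Fold changes are fitted values, and log2 CPM used a prior count of 2. The members and gene lists were chosen with earlier results of these data known. Named genes were the 8 members, the 5 genes most like PROM1, up to 3 other locus genes and up to 3 called genes per list. Guide matches, distances and promoters were computed from hg38, GENCODE 44 and RefSeq tables. The spread behind the recruitment fits holds the 2 replicates of each line and, in the pooled controls, the difference between the 2 control lines. Each fusion has a single recruitment line, so the spread between independently made recruitment lines is not measured.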

Additional observations from a re-analysis of the deposited data

How the results depend on the processing

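No called member changed direction under any alternative run. FGFBP2 with CRISPRi, which was not called, turned sign with the control array, its log2 difference being 0.71 against LTR5HS Sa alone and -0.37 against nontarget Sp alone. The number of members called with CRISPRa, 2, ranged from 1 to 3 when single libraries were left out. It was 1 without dCas9-VPR LTR5HS Sp replicate 2 (LDB2 lost) and 3 without dCas9-VPR nontarget Sp replicate 1 (TAPT1 gained), and it was 3 also with the control arrays as separate groups or with LTR5HS Sa alone as control. The number called with CRISPRi, 1, became 3 with DESeq2's Wald test (PROM1, TAPT1 and LDB2), and 2 (PROM1 and LDB2) without a filter on low counts and with nontarget Sp alone as control. It ranged from 1 to 2 when single libraries were left out, being 2 without dCas9-KRAB nontarget Sp replicate 1. The cause was not tested. PROM1 was at 1.97 to 2.04 (CRISPRa) and -3.73 to -3.56 (CRISPRi) on the log2 scale with single libraries left out, and TAPT1 with CRISPRi at -0.96 to -0.47. Genes called over the whole table numbered 4548 with CRISPRa (2299 to 4626 with single libraries left out) and 430 with CRISPRi (214 to 441 with single libraries left out, 716 with DESeq2's Wald test). The fits that leave out a recruitment library rest on 1 recruitment library, which is assumed to vary like the controls.

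Replicate numbers 1 and 2 are shared by the lines in the labels, but no label ties a number to a day or batch. Deviations of same-numbered libraries correlated at 0.283 to 0.396 with dCas9-VPR and 0.216 to 0.435 with dCas9-KRAB. Blocking on the replicate number (replicate block), 2 members were called with CRISPRa and 2 with CRISPRi (PROM1 and LDB2), and 0 between the control arrays with either fusion. Genes called with the block were 4961 with CRISPRa and 507 with CRISPRi.

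By Spearman's rho of CPM, 1 of the 5 genes most like PROM1 was kept. Guide matches numbered 7 exact and 12 with up to 1 mismatch. Measured to the nearest annotated transcript start, the distances were 1.08 kb for PROM1, 89.4 for TAPT1, 108 for FGFBP2, 260 for CD38, 362 for BST1, 430 for LDB2 and 481 kb for CC2D2A. Depth limits BST1, FGFBP1 and, with dCas9-VPR, CD38.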
